A study of Homo sapiens with 6 samples.

Results

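The lysosome genes described here were the 125 genes, of 24960 in the count table, whose KEGG annotation in that table contains the lysosome pathway. ABC transporters and SLC11A2 were left out, which removed 3 of 128 annotated genes. They were measured by RNA-seq in K562 cells, a line of chronic myeloid leukemia cells that grows in suspension, in 3 control libraries and 3 hyperoside (2 mM) libraries. Hyperoside is a plant flavonol glycoside, and the study examined its action on these leukemia cells. The control group carries no further label, so its vehicle is not given in the sources used here, and neither is the time between treatment and RNA extraction. All libraries come from 1 cell line, and nothing in the labels says that replicates were separate cultures, so p-values measure the spread between these libraries, which may be technical.

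The lysosome is the acidic compartment in which cells break down proteins, glycans, lipids and nucleic acids. Most of its soluble hydrolases are tagged with mannose 6-phosphate in the Golgi and carried onward by mannose 6-phosphate receptors in clathrin-coated vesicles. A proton pump, the V-ATPase, acidifies the compartment, and heavily glycosylated proteins line its membrane. The 125 genes were sorted into 9 roles along this route, namely proteases, glycosidases, sulfatases, lipases with other hydrolases, activators and carriers, tagging enzymes with mannose 6-phosphate receptors, membrane proteins, the proton pump, and adaptors with clathrin.

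Library totals ran from 35613283 to 36754725 counts, and the lysosome genes took 1.06% to 1.10% of them in control and 1.24% to 1.32% in hyperoside libraries. Of 15095 genes that passed the filter on low counts, 119 were lysosome genes. Control replicate 1 stood apart from the other two control libraries, with a chi-square per degree of freedom of 20.3 and 23.1 against them, whereas those differed from each other by 6.34. The sample labels give bone as tissue, but the bone cell markers summed to 10.1 to 12.4 normalized CPM. COL1A1, COL1A2 and RUNX2 passed the filter on low counts, SPP1 did not, and BGLAP and ALPL were close to 0. The K562 markers summed to 4790 to 7050 normalized CPM. Normalized CPM are counts scaled to a common library total (edgeR CPM with TMM factors), and values below are listed in the order of replicates 1, 2 and 3.

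More lysosome genes were higher than lower in hyperoside cells. At an adjusted p under 0.05 in edgeR's quasi-likelihood test, 53 of the 119 tested genes (44.5%) were higher, whereas 22.1% of all tested genes were. Another 20 (16.8%) were lower, against 23.2% of all tested genes, and 46 were not called. In either direction 73 genes (61.3%) were called, against 45.3% of all tested genes. The median log2 fold change was 0.14, against 0.00 over all tested genes, and 79 of the 119 genes were above 0. In 79 genes (66.4%) the groups did not overlap, against 54.4% of all tested genes. Without control replicate 1, the library that stood apart, 55 genes were higher and 23 lower. In bulk RNA, fewer cells of a type and less RNA per cell cannot be told apart. Of 24 tested adaptor and clathrin genes 2 were higher and 8 lower. The remaining 95 tested genes held 51 higher and 12 lower genes, and the median of their log2 fold changes was 0.35.

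**Figure D1:**
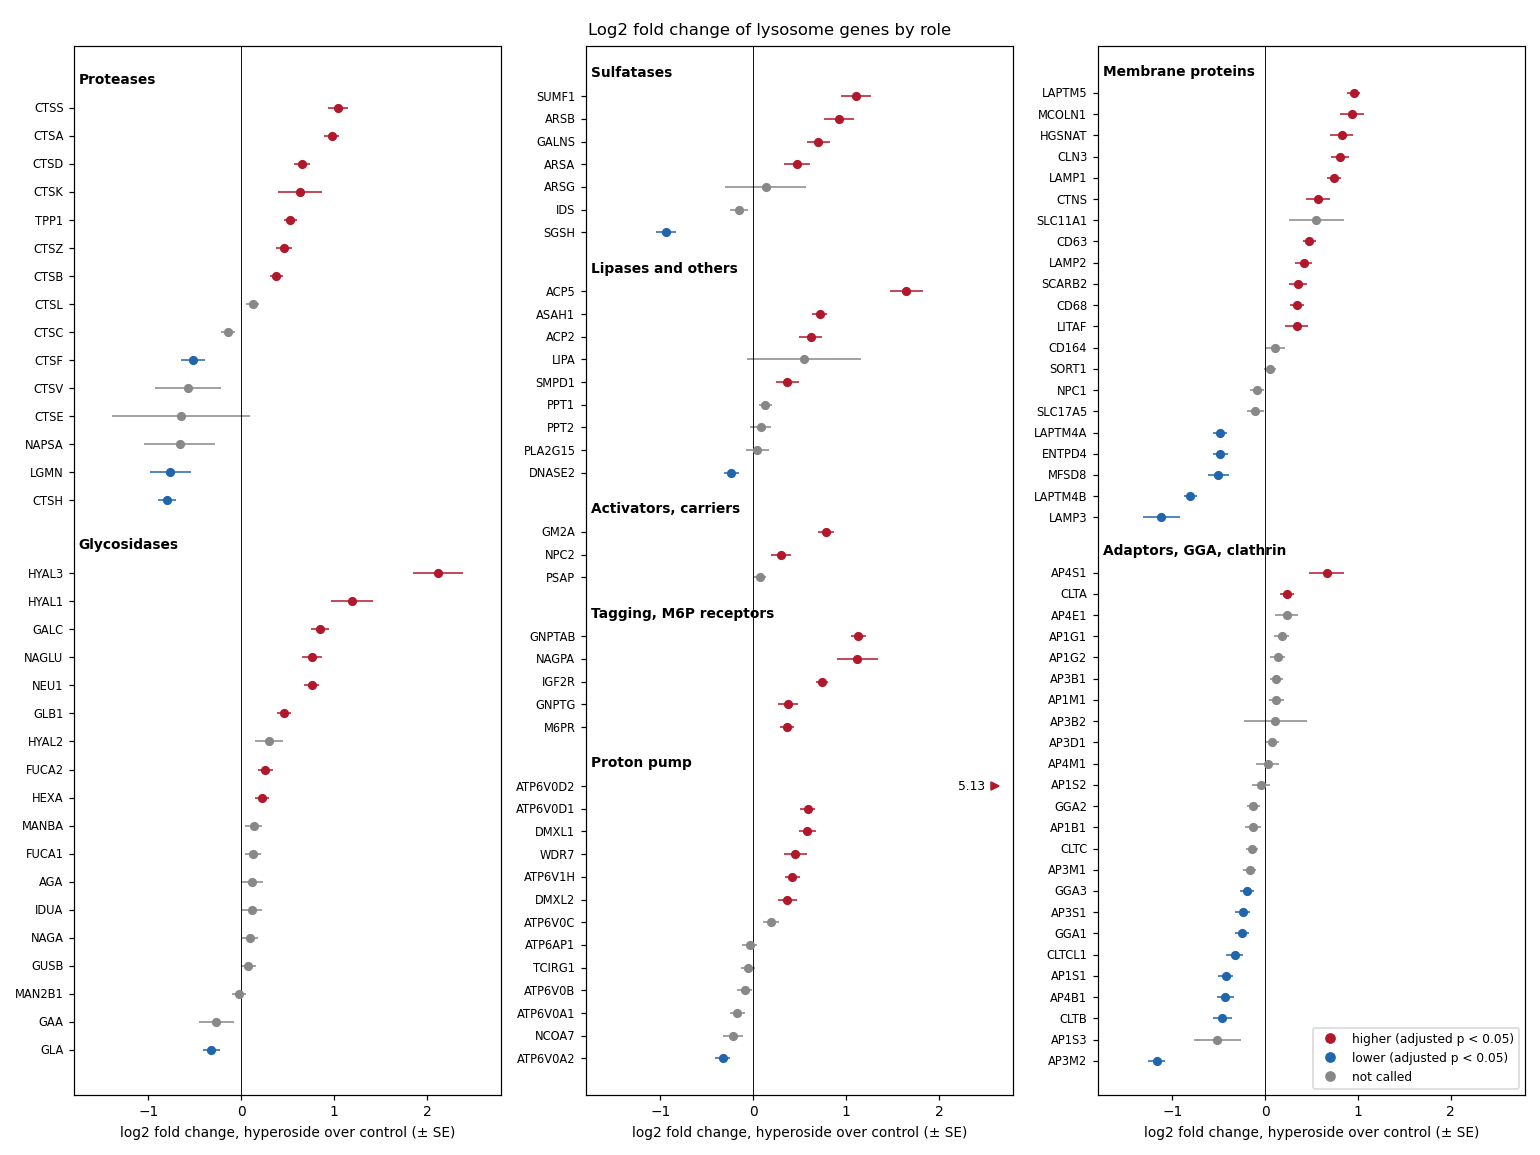
Log2 fold change (hyperoside over control) of the tested lysosome genes that are reported by name, 1 point per gene with a bar for ± SE, arranged by role, with colour giving the call and an arrow for ATP6V0D2, whose 5.13 is off the axis. All 5 tagging and receptor genes lie above 0, and the adaptors and clathrin, with a median of -0.13, lie mostly below it.

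At a fold change above 2 as well, 9 of the 119 tested genes were higher, among them ACP5, ATP6V0D2, CTSS, GNPTAB, HYAL1, HYAL3, NAGPA and SUMF1. They include enzymes, tagging genes and a pump subunit, ATP6V0D2, which passed the filter on low counts only through its hyperoside libraries. AP3M2 and LAMP3 were lower by more than 2-fold. Over all tested genes 6.43% were higher and 3.76% lower by this rule. With a library left out in turn, 9 or 10 lysosome genes were higher by this rule. CTSS was not among them without control replicate 1, nor HYAL1 without control replicate 2, and other genes entered. The 9 became 4 with limma-trend on log2(FPKM + 1), which compresses low genes. The 2 lower genes became 0 on that scale and 1 with log2(FPKM + 0.1). They were 1 without control replicate 3, 3 without control replicate 2 or hyperoside replicate 2, and 4 without hyperoside replicate 1 or 3.

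The 5 genes that tag hydrolases and recover them were all higher. GNPTAB (NCBI gene 79158, chromosome 12 from 101745497 to 101830938 on the minus strand of GRCh38) encodes the catalytic part of the phosphotransferase that adds the tag. It measured 49.3, 56.8 and 53.7 normalized CPM in control and 128, 109.5 and 113 in hyperoside libraries. Its lowest hyperoside library lay well above its highest control library, with a log2 fold change of 1.13 (SE 0.08, adjusted p = 1.15e-08, edgeR). IGF2R, the large mannose 6-phosphate receptor (chromosome 6 from 159969099 to 160113507, plus strand), measured 261, 278 and 274 normalized CPM in control and 449, 466 and 439.9 in hyperoside libraries. All 3 hyperoside libraries were higher, with a log2 fold change of 0.74 (SE 0.07, adjusted p = 1.03e-07, edgeR). NAGPA, which uncovers the tag, was a low gene at 3.61, 2.42 and 2.52 normalized CPM in control and 4.71, 7.11 and 6.76 in hyperoside libraries (log2 fold change 1.12, SE 0.22, adjusted p = 5.19e-04, edgeR). M6PR, the small receptor, measured 75.7, 71.5 and 68.0 normalized CPM in control and 90.0, 97.1 and 90.3 in hyperoside libraries, a log2 fold change of 0.37 (SE 0.08, adjusted p = 8.78e-04, edgeR). The groups of NAGPA and of M6PR did not overlap either. GNPTG, the other subunit of the phosphotransferase, was higher at a log2 fold change of 0.37 (adjusted p = 0.00844, edgeR), but not without control replicate 2 (adjusted p = 0.0511). The summed level of the 5 genes was 63.2 ± 0.48 FPKM in control and 100.5 ± 3.03 in hyperoside libraries (SD, n = 3 each), where FPKM are counts scaled to gene length and library total.

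**Figure D2:**
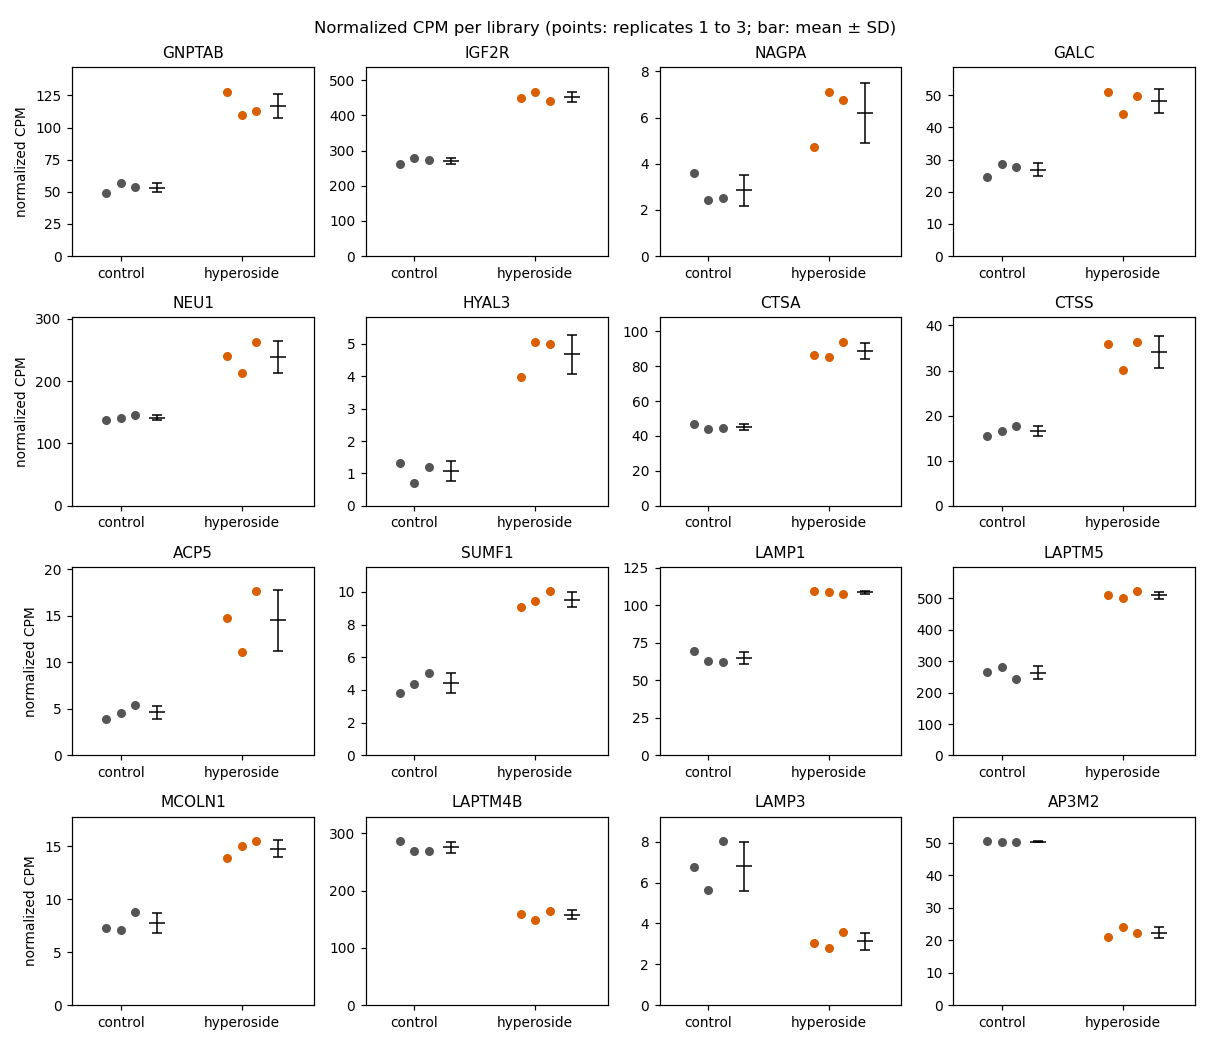
Normalized CPM of selected lysosome genes in each library, with points for replicates 1 to 3 of each group and a bar for the mean ± SD, each panel starting at 0. For GNPTAB the hyperoside points lie between 109.5 and 128 and the control points between 49.3 and 56.8.

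The promoters of the lysosome genes were also searched for a motif. The motif searched was CACGTG, which reads the same on both strands and is the core of the element bound by the transcription factors TFEB, TFE3 and MITF at lysosome genes. RefSeq windows (GRCh38.p14) from 250 bases before to 50 after a start matched 94 of the 125 genes. The motif was present in 23 of these 94 genes (24.5%), against 12.1% of 11952 tested genes with a window. Counted by window, 24 of 137 windows of tested lysosome genes (17.5%) held it, against 9.19% of 16947 windows of all tested genes. Among higher lysosome genes 16 of 38 (42.1%) held it, among those not called 6 of 39 (15.4%) and among lower ones 1 of 14 (7.14%). Over all tested genes the shares were 14.6%, 11.5% and 11%. Genes with the motif had a median log2 fold change of 0.65, and those without it 0.12. The 2 sets also differ in role. Of adaptor and clathrin genes with a window, 2 of 21 held the motif, and of tagging and receptor genes 4 of 5. The part of role in the difference was not tested. The motif counts describe letters in a window, not binding, and they do not tell which factor, if any, binds there. Of 38 such motifs, 35 had a T before or an A after, the flanks of the longer element, and 17, in 11 genes, had both. Within 100 bases before the start 24 of them began, some of which run past it.

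LAMP1 held most motifs, 6 in all, of which the 5 that are complete before the start are visible in its 250 upstream bases (chr13:113296989-113297238, plus strand). IGF2R held 3 (chr6:159968832-159969081, plus strand). Both are printed 5′ to 3′ on the gene strand, with the motif in capitals.
LAMP1: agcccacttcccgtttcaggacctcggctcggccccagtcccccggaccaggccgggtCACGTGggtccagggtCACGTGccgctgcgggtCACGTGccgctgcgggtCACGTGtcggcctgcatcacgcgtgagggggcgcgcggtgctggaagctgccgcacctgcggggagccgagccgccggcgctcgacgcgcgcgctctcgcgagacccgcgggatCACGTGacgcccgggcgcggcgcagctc
IGF2R: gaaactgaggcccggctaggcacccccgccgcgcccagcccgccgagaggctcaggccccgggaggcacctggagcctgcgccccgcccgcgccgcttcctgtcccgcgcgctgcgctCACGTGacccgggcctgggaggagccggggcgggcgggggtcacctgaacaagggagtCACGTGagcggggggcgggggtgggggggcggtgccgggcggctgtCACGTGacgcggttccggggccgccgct

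The last 60 bases before the start follow for 7 of the higher genes that hold the motif there. They are followed by CTSF, the lower gene with the motif, which is again in capitals. The windows are chr19:7522564-7522623 (plus) for MCOLN1, chr20:45891275-45891334 (plus) for CTSA, chr16:5033936-5033995 (minus) for NAGPA, chr16:1351871-1351930 (plus) for GNPTG, chr3:4467270-4467329 (minus) for SUMF1, chr11:1763928-1763987 (minus) for CTSD, chr16:67481158-67481217 (minus) for ATP6V0D1 and chr11:66568607-66568666 (minus) for CTSF.
MCOLN1: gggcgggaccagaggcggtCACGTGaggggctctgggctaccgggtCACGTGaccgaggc
CTSA: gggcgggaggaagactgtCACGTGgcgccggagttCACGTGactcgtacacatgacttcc
NAGPA: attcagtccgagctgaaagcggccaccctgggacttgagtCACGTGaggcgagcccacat
GNPTG: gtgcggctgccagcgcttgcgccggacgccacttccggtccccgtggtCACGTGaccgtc
SUMF1: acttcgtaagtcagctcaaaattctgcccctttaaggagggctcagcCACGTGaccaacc
CTSD: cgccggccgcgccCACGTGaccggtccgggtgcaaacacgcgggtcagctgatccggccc
ATP6V0D1: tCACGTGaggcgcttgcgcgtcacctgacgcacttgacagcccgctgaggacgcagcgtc
CTSF: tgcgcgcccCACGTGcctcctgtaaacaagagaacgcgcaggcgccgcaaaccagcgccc

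MCOLN1 and CTSA hold the motif at 2 places in these 60 bases. The longer form TCACGTG, which contains the shorter one, was searched on either strand and found in 21 of the 94 genes (22.3%), against 6.88% of tested genes. GNPTAB, which had the smallest adjusted p of the tagging genes, has no CACGTG in its window.

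**Figure D3:**
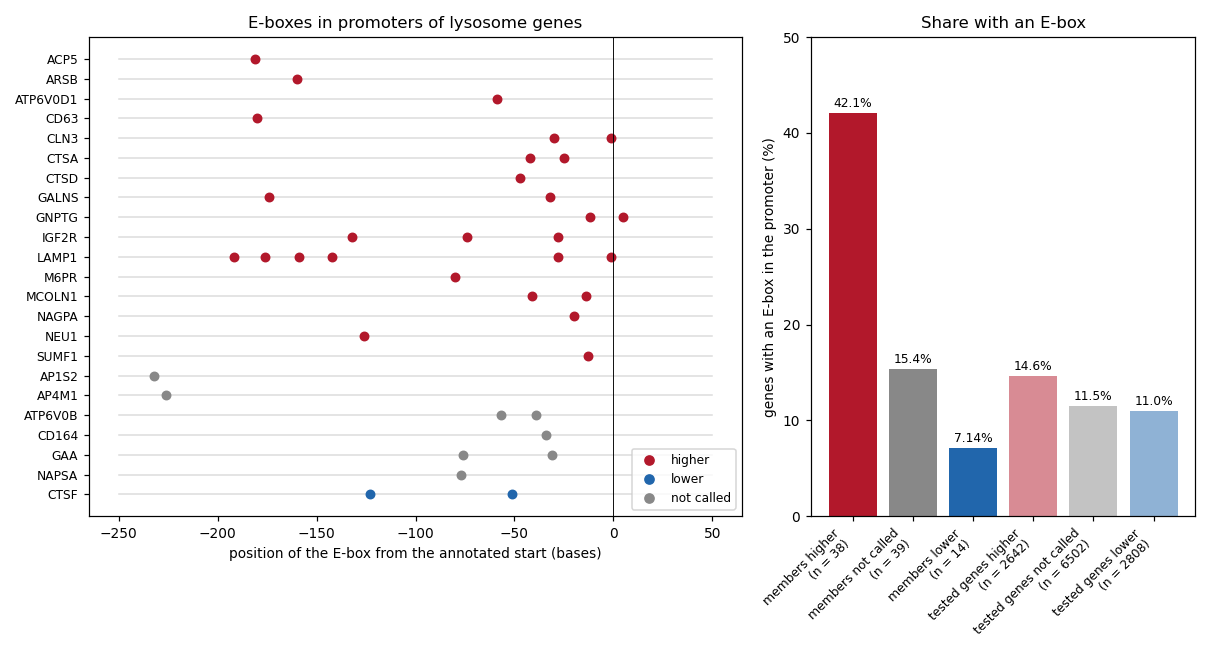
Left, position of each CACGTG motif (E-box) relative to the annotated start, in bases, for each lysosome gene that holds one. Right, percentage of genes with the motif by call, for lysosome genes and all tested genes, with 42.1% of higher lysosome genes against 14.6% of all higher genes.

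The factors themselves, chosen outside the rule for named genes, moved in different directions. MITF measured 39.3, 43.7 and 44.4 normalized CPM in control and 57.5, 56.7 and 63.3 in hyperoside libraries (log2 fold change 0.48, adjusted p = 2.25e-04, edgeR). TFEB measured 5.12, 4.03 and 4.37 normalized CPM in control and 2.67, 2.12 and 2.22 in hyperoside libraries (log2 fold change -0.95, adjusted p = 0.00194, edgeR). TFE3 fell from 98.1, 83.9 and 87.8 to 60.4, 55.2 and 67.2 normalized CPM (log2 fold change -0.56, adjusted p = 5.93e-05, edgeR). The groups did not overlap for any of the 3, and TFEC was too low to test.

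Among 20 tested glycosidases, which trim sugars from glycolipids and glycoproteins, 10 were higher and GLA was lower. NEU1, the lysosomal sialidase, measured 138, 140.0 and 145 normalized CPM in control and 239.9, 213 and 263 in hyperoside libraries (log2 fold change 0.76, SE 0.08, adjusted p = 6.4e-07, edgeR). GALC, which cleaves galactosylceramide, rose by 0.84 on the log2 scale (adjusted p = 1.51e-06, edgeR). HYAL3 and HYAL1, members of the hyaluronidase family, were low. HYAL3 measured 1.31, 0.71 and 1.20 normalized CPM in control and 3.98, 5.07 and 4.98 in hyperoside libraries, a log2 fold change of 2.12 (SE 0.27, adjusted p = 6.15e-06, edgeR). Its exons overlap those of IFRD2 and NAA80 on the same strand, both of which were lower, at log2 fold changes of -0.36 and -0.75 (adjusted p = 0.0307 and 0.00149, edgeR). The call for IFRD2 was lost without control replicate 1 or hyperoside replicate 1 or 3 (adjusted p = 0.0659 to 0.19). HYAL1 measured 3.90, 2.13 and 2.88 against 6.24, 5.75 and 8.36 normalized CPM (log2 fold change 1.19, SE 0.23, adjusted p = 3.59e-04, edgeR).

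HEXA, an enzyme of ganglioside breakdown, had a log2 fold change of 0.22 (adjusted p = 0.0181, edgeR), which was not called without control replicate 2 or 3 or hyperoside replicate 1 or 3 (adjusted p = 0.0581 to 0.0979). GLA, the α-galactosidase, measured 43.6, 41.4 and 37.7 normalized CPM in control and 32.7, 32.9 and 32.5 in hyperoside libraries (log2 fold change -0.32, adjusted p = 0.00674, edgeR).

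Among 15 tested proteases, 7 were higher and CTSH, CTSF and LGMN were lower, with 6 of 12 tested cathepsins higher and 2 lower. CTSA, which shields NEU1 and the β-galactosidase (chromosome 20 from 45890144 to 45898820, plus strand), measured 47.0, 44.3 and 44.3 normalized CPM in control and 86.6, 85.2 and 94.0 in hyperoside libraries. Its libraries were tight within each group, with a log2 fold change of 0.97 (SE 0.08, adjusted p = 3.67e-08, edgeR). CTSS, a cysteine cathepsin of antigen-presenting cells, measured 15.4, 16.6 and 17.6 against 35.8, 30.1 and 36.4 normalized CPM (log2 fold change 1.04, SE 0.11, adjusted p = 4.3e-07, edgeR). CTSD, the aspartic cathepsin, measured 178, 157 and 145 against 241, 238 and 275 normalized CPM (log2 fold change 0.65, SE 0.08, adjusted p = 6.15e-06, edgeR). CTSB and CTSL are abundant cysteine cathepsins. CTSB rose by 0.38 on the log2 scale (adjusted p = 3.89e-04, edgeR), from 84.2 ± 2.38 to 113 ± 9.08 FPKM (SD, n = 3 each). CTSL, the protease with the highest FPKM averaged over the 6 libraries, measured 194, 183 and 186 normalized CPM in control and 208, 189 and 215 in hyperoside libraries. These groups overlap, and its log2 fold change of 0.12 was not called (adjusted p = 0.184, edgeR). CTSH, an aminopeptidase, went the other way, with 79.9, 66.6 and 64.8 normalized CPM in control and 40.5, 37.2 and 43.8 in hyperoside libraries. Every hyperoside library of CTSH was below every control library, at a log2 fold change of -0.80 (SE 0.10, adjusted p = 3.02e-06, edgeR). CTSF and the asparaginyl endopeptidase LGMN had log2 fold changes of -0.52 and -0.77 (adjusted p = 0.00268 and 0.00903, edgeR).

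The sulfatases and SUMF1, which activates all of them, held 5 higher genes and 1 lower gene of 8. SUMF1 measured 3.81, 4.38 and 5.04 normalized CPM in control and 9.10, 9.45 and 10 in hyperoside libraries (log2 fold change 1.11, SE 0.16, adjusted p = 2.42e-05, edgeR). GALNS, which removes sulfate from glycosaminoglycans, had a log2 fold change of 0.70 (adjusted p = 1.87e-04, edgeR). SGSH, the heparan N-sulfatase, was the lower gene, at 24.2, 23.7 and 23.2 against 13.5, 11.3 and 12.2 normalized CPM (log2 fold change -0.94, SE 0.11, adjusted p = 1.78e-06, edgeR). Its groups were wide apart, and it was past the 2-fold threshold only when hyperoside replicate 1 was left out.

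Of the 9 lipases, phosphatases and other hydrolases, 4 were higher and DNASE2 lower. ACP5, the tartrate-resistant acid phosphatase, measured 3.95, 4.52 and 5.40 normalized CPM in control and 14.7, 11.1 and 17.6 in hyperoside libraries (log2 fold change 1.65, SE 0.18, adjusted p = 7.72e-07, edgeR). ASAH1, the acid ceramidase, measured 148, 168 and 176 against 269.6, 247 and 291 normalized CPM (log2 fold change 0.72, SE 0.08, adjusted p = 1.55e-06, edgeR). Both were separated between groups in every library. ACP2, another acid phosphatase, rose by 0.62 on the log2 scale (adjusted p = 4.91e-04, edgeR). DNASE2, an acid nuclease, had a log2 fold change of -0.24 (adjusted p = 0.0251, edgeR), which was not called without control replicate 3 or hyperoside replicate 1 or 2 (adjusted p = 0.067 to 0.147).

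PSAP, the saposin precursor and the lysosome gene with the highest FPKM, measured 1585, 1501 and 1494 normalized CPM in control and 1619, 1465 and 1721 in hyperoside libraries. These values overlap, and its log2 fold change of 0.07 was not called (adjusted p = 0.443, edgeR). GM2A, the activator that presents GM2 ganglioside for breakdown, measured 79.3, 84.8 and 87.7 against 149, 126 and 159.8 normalized CPM (log2 fold change 0.79, SE 0.09, adjusted p = 1.19e-06, edgeR). NPC2, the luminal cholesterol carrier, was called at a log2 fold change of 0.30 (adjusted p = 0.0269, edgeR) although its groups overlap, and the call was lost without control replicate 2 or 3 or hyperoside replicate 1 or 3 (adjusted p = 0.0564 to 0.148).

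Of the 21 membrane proteins 11 were higher and 5 lower. LAMP1 (NCBI gene 3916, chromosome 13 from 113297241 to 113323672, plus strand), a main glycoprotein of the lysosomal membrane, measured 69.4, 63.1 and 62.2 normalized CPM in control and 109, 109 and 108 in hyperoside libraries. Its 3 hyperoside libraries were nearly equal and all above control, with a log2 fold change of 0.74 (SE 0.08, adjusted p = 4.62e-07, edgeR). LAMP2, its relative, rose by 0.41 on the log2 scale (adjusted p = 0.00121, edgeR), and LAMP3, a low gene, fell from 6.77, 5.62 and 8.03 to 3.02, 2.78 and 3.60 normalized CPM (log2 fold change -1.12, SE 0.20, adjusted p = 1.73e-04, edgeR). The LAPTM proteins, which span the lysosomal membrane, were called in both directions. LAPTM5, the member of blood cells, measured 267, 281 and 242 normalized CPM in control and 509, 499 and 522 in hyperoside libraries (log2 fold change 0.95, SE 0.07, adjusted p = 1.15e-08, edgeR). LAPTM4B measured 286, 269.7 and 269.7 against 158, 149 and 165 normalized CPM (log2 fold change -0.81, SE 0.07, adjusted p = 7.02e-08, edgeR). Neither pair of groups overlapped. LAPTM4A followed LAPTM4B in direction, with a log2 fold change of -0.48 (adjusted p = 5.06e-05, edgeR).

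MCOLN1, the lysosomal calcium channel (chromosome 19 from 7522626 to 7534009, plus strand), measured 7.25, 7.10 and 8.82 normalized CPM in control and 13.9, 15 and 15.5 in hyperoside libraries, a log2 fold change of 0.94 (SE 0.13, adjusted p = 1.95e-05, edgeR). Its exons overlap PNPLA6 on the same strand. CLN3 had a log2 fold change of 0.81 (adjusted p = 1.8e-06, edgeR). The tetraspanin CD63 and the macrophage-rich glycoprotein CD68 had 0.48 and 0.34 (adjusted p = 3.01e-05 and 0.00123, edgeR). The nucleotidase ENTPD4 had a log2 fold change of -0.48 (adjusted p = 1.2e-04, edgeR). NPC1, which exports cholesterol with NPC2, was not called at -0.09 (adjusted p = 0.372, edgeR), and its groups overlap.

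Of 13 tested proton pump genes 6 (46.2%) were higher and ATP6V0A2 (7.69%) lower, against 22.1% and 23.2% of all tested genes. The 6 were ATP6V0D1, ATP6V0D2, ATP6V1H, DMXL1, DMXL2 and WDR7, not all of which encode subunits of the pump. ATP6V0D1, a subunit of the membrane sector, measured 42.4, 43.1 and 44.7 normalized CPM in control and 61.6, 64.2 and 69.8 in hyperoside libraries (log2 fold change 0.59, SE 0.08, adjusted p = 1.79e-05, edgeR). DMXL1, which helps assemble the pump, measured 71.6, 96.3 and 92.7 against 133, 129 and 128 normalized CPM (log2 fold change 0.58, SE 0.09, adjusted p = 7.04e-05, edgeR). Both were above control in every hyperoside library. ATP6V0D2, the d2 subunit best known from osteoclasts, had 2, 0 and 0 counts in control and 40, 14 and 31 in hyperoside libraries, a ratio of 41.2 between the groups' normalized totals with a 95% exact counting interval of 11.1 to 345. Its adjusted p was 2.06e-04 in edgeR, and the interval covers counting error only. ATP6V0D2 passed the filter on low counts through its hyperoside libraries alone, and a filter of at least 50 counts in 3 libraries left it without a value. ATP6V0A2 had a log2 fold change of -0.33 (adjusted p = 0.0032, edgeR). TCIRG1, ATP6AP1 and ATP6V0C, the last with the highest FPKM of the role averaged over the 6 libraries, were not called, at -0.05, -0.04 and 0.19, and their groups overlap. The summed level of the 14 genes was 367.8 ± 6.49 FPKM in control and 407.3 ± 15.9 in hyperoside libraries (SD, n = 3 each).

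The adaptors and clathrin, which build the transport coats, were the role with more lower than higher genes. Of 24 tested, 8.33% were higher and 33.3% lower, against 22.1% and 23.2% of all tested genes. In either direction 41.7% were called, close to the 45.3% of all tested genes. AP3M2, a subunit of the AP-3 coat, measured 50.5, 50.2 and 50.4 normalized CPM in control and 20.9, 24.1 and 22.1 in hyperoside libraries, a log2 fold change of -1.17 (SE 0.09, adjusted p = 1.75e-08, edgeR). Control libraries hardly differed from each other, and all hyperoside libraries were below them. AP1S1 and AP4B1 had log2 fold changes of -0.43 and -0.43 (adjusted p = 3.18e-04 and 0.00101, edgeR). AP4S1 was higher at 0.66 (adjusted p = 0.00844, edgeR). CLTA, a clathrin light chain, was higher at 0.24 (adjusted p = 0.0166, edgeR), but not without control replicate 2 or 3 or hyperoside replicate 3 (adjusted p = 0.0529 to 0.0923). The heavy chain CLTC, with 759.5, 823 and 777 normalized CPM in control and 694, 737 and 701 in hyperoside libraries, was not called at -0.15 (adjusted p = 0.0754, edgeR), though its groups do not overlap. By complex, AP-1 had 0 higher and 1 lower of 7 tested, AP-3 0 and 2 of 6, AP-4 1 and 1 of 4, and clathrin with the GGA adaptors 1 and 4 of 7.

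**Figure D4:**
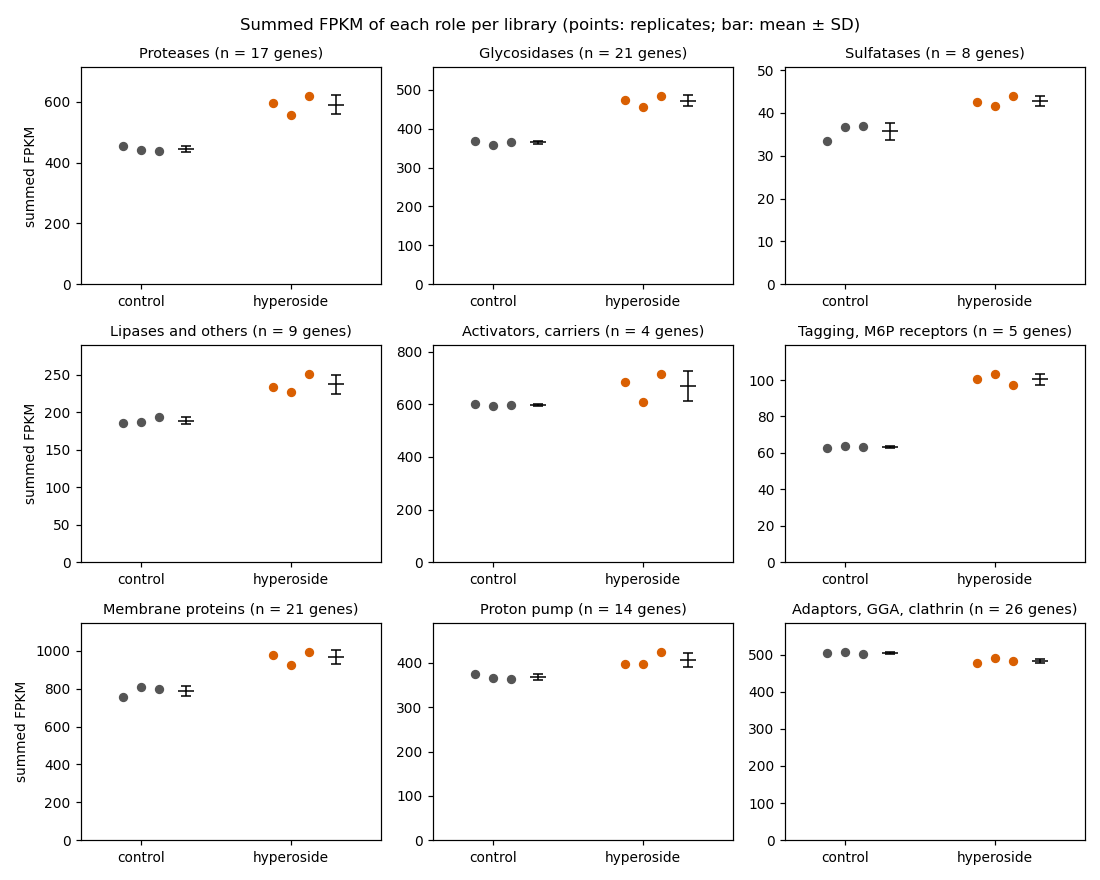
Summed FPKM of all genes of each role in each library, with points for replicates and a bar for the mean ± SD, each panel starting at 0. The tagging and receptor genes go from 63.2 to 100.5 FPKM, whereas adaptors and clathrin go from 505.1 to 484.1.

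On the scale of summed FPKM, which weights abundant genes most, all lysosome genes together measured 3355 ± 9.53 in control and 3972 ± 156 in hyperoside libraries (SD, n = 3 each). Proteases were at 133% of control, glycosidases at 129%, lipases and other hydrolases at 126%, membrane proteins at 123%, sulfatases at 120%, activators at 112%, the pump at 111% and adaptors at 95.8%. By abundance, 27 of 59 tested genes with a mean of at least 10 FPKM were higher, and so were 26 of 60 tested genes below it.

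**Figure D5:**
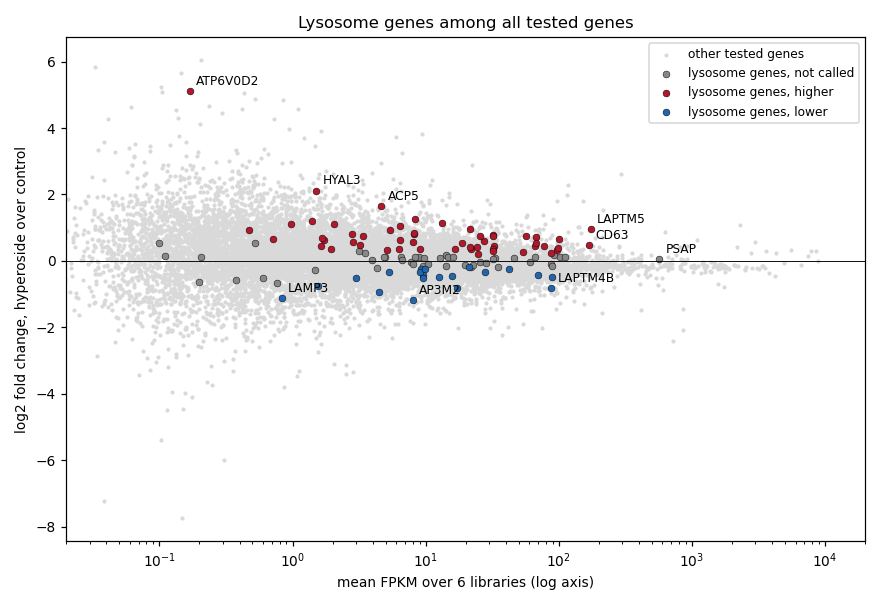
Mean FPKM over the 6 libraries (log axis) against log2 fold change (hyperoside over control) for all tested genes, with lysosome genes coloured by call. Higher lysosome genes lie both below and above 10 FPKM, and PSAP, at a log2 fold change of 0.07, is the lysosome gene furthest right.

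Lysosome genes outside the annotation were read from lists of pump subunits and of other lysosomal genes. Of 12 tested subunits, mostly of the V1 sector that hydrolyses ATP, 4 (33.3%) were higher and 2 (16.7%) lower. Over all tested genes 22.1% were higher and 23.2% lower. ATP6V1C1 and ATP6V0E1 had log2 fold changes of 0.78 and 0.48 (adjusted p = 4.24e-07 and 3.06e-04, edgeR), and ATP6V1B2 and ATP6V0E2 had -0.33 and -0.43 (adjusted p = 5.93e-04 and 0.00666, edgeR). Of 30 tested other lysosomal genes 11 (36.7%) were higher and only DPP7 (3.33%) lower, and the median change was 0.08 on the log2 scale. Among the 11, CPVL had 12, 8 and 4 counts in control and 40, 25 and 39 in hyperoside libraries. CPVL passed the filter on low counts only with its hyperoside libraries. In either direction 40% of these 30 genes and 50% of the 12 subunits were called, against 45.3% of all tested genes. The transporter MFSD1 measured 24.4, 26 and 24.6 normalized CPM in control and 40.4, 42.1 and 44.7 in hyperoside libraries (log2 fold change 0.76, adjusted p = 2.41e-06, edgeR), and OSTM1, which partners the chloride exchanger CLCN7, had a log2 fold change of 0.91 (adjusted p = 5.3e-06, edgeR). DPP7 was at -0.27 (adjusted p = 0.0196, edgeR), which was not called without control replicate 1 or hyperoside replicate 1 or 3 (adjusted p = 0.0696 to 0.094).

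Some markers of other cells moved with the lysosome genes. Of 7 macrophage and monocyte markers 3 were tested and all 3 were higher, with a summed level of 65.7 to 68.3 normalized CPM in control and 97.4 to 106 in hyperoside libraries. LYZ and ITGAM made up most of this, CD14, CD163 and MRC1 were near 0, and MARCO was at 0. CSF1R was below 1 CPM in all libraries, with 16, 5 and 6 counts in control and 35, 30 and 34 in hyperoside libraries. It passed the filter on low counts only with its hyperoside libraries, so being tested depended on the group where it was higher. Lymphocyte markers, nearly all CD3D, summed to 32.2 to 38.9 and 41.0 to 45.9 normalized CPM, with MS4A1 at 1 count in all. Bone cell markers summed to 10.1 to 12.4 and 10.4 to 12.4, but single markers differed. COL1A1 was lower (log2 fold change -0.99, adjusted p = 0.00711, edgeR), and COL1A2 and RUNX2 were not called. SPP1, too low to test, had 5, 0 and 2 counts in control and 24, 6 and 29 in hyperoside libraries. Of 10 K562 markers 3 were higher and 4 lower, and their sum was 5630 to 7050 in control and 4790 to 5770 in hyperoside libraries. The part of any of these in the lysosome results was not tested.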

How the data were processed

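RNA-seq counts of 6 K562 libraries (3 control, 3 hyperoside) were analysed. Raw counts per gene were deposited as counted, and the authors also deposited FPKM values, in which those counts are divided by gene length and library total. The same gene length accounted for the FPKM of all 23241 genes with counts, within 0.1%. The submitters' processing notes name fastp, HISAT2, HTSeq and build hg38. Their versions, the annotation and the use of strand in counting are not given in the sources used here. Exons of 65 of the 125 genes overlap those of another gene on either strand, and exons of 27 do so on the same strand. The dose of hyperoside comes from the paper, not from the labels.

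Lysosome genes were taken from the pathway column of the count table. Counts of all genes were compared in R 4.3.3 with edgeR 4.0.16, using filterByExpr (minimum count 10, minimum total 15), TMM factors (0.957 to 1.03) and the quasi-likelihood test, with condition as the only term, and p-values were adjusted by Benjamini-Hochberg over 15095 genes. The biological coefficient of variation was 0.105. Standard errors are the log2 fold change divided by the square root of F. The test was checked on simulated counts. DESeq2 1.42.0 and limma 3.58.1 gave alternatives. Tables were joined with Python 3.11.15, pandas 2.3.3 and numpy 2.4.6, and plots drawn with matplotlib 3.10.9. Gene positions and exon overlaps came from GENCODE 29 and promoters from RefSeq (GRCh38.p14).

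Named genes are all members at an adjusted p under 0.05 and fold above 2, the 3 higher and 3 lower members of each role with the smallest adjusted p, the member of each role with the highest mean FPKM over all libraries, a fixed list of well-known genes, members with 10 counts or fewer, and the 2 leading genes in each direction of the outside lists. GNPTG, MITF, TFEB, TFE3, TFEC, IFRD2, NAA80, CPVL, ATP6V1H, DMXL2 and WDR7 are named outside it, after their values were seen. Some genes that the rule takes are counted in the totals but not reported here. The members and lists were chosen with earlier results of these data known. Roles follow from textbook function. Replicate numbers did not pair the libraries, since the deviations of same-numbered libraries correlated at -0.081, -0.033 and -0.034. Annotation columns other than identifiers, pathways and gene ontology terms were not used.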

Additional observations from a re-analysis of the deposited data

How the results depend on the processing

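Values were recomputed under 14 alternatives. The counts of higher and lower genes kept their size, from 46 to 55 higher and from 17 to 23 lower with a library left out in turn. Of the 73 called genes, 57 were called under every alternative other than the filter of 50 counts in 3 libraries, which left ATP6V0D2 without a value. The 9 genes higher by more than 2-fold were 4 on log2(FPKM + 1), and the 2 lower ones were 0 on that scale, 1 on log2(FPKM + 0.1), 3 with the DESeq2 Wald test or with no filter on low counts, and 1 to 4 with a library left out. For all tested lysosome genes the median went from 0.136 to 0.183 on the log2 scale with library totals only, where that of all tested genes went from 0.003 to 0.053, and from 0.145 to 0.19 with a library left out. Of 797 recomputed values of 57 named genes, 758 kept their direction and their side of the threshold, 25 in 5 genes, CLTA, DNASE2, HEXA and NPC2 among them, lost the call, 8 in ATP6V0C, CLTC and CTSL gained it, and 6 changed sign without being called. ATP6AP1 changed from -0.04 to 0.012 with library totals only and to 0.01 on either FPKM scale, and ran from -0.092 to 0.028 with a library left out, above 0 without control replicate 1 or hyperoside replicate 2. TCIRG1 ran from -0.104 to 0.017, above 0 without control replicate 1. With library totals only and on the FPKM scales the median of all tested genes was also higher, at 0.053, 0.027 and 0.049. The cause of the changes with a library left out was not tested. With the replicate number as a block, 51 genes were higher and 19 lower, and 3 genes lost their call, CTSK and GGA3 among them, but the numbers mark no shared origin and the deviations do not pair. At this depth 6 genes did not pass the filter on low counts, of which AP1M2 was called lower with no filter and with the DESeq2 Wald test.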

Other observations

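By gene ontology, 25 of the lysosome genes are also proteins of the azurophil granule, the lysosome-like granule of myeloid cells. Of these 15 (60%) were higher, GLA was lower and 9 were not called, with a median log2 fold change of 0.30. The other 94 tested genes, which include all tested adaptors and clathrin, had a median of 0.12. Among the 95 tested lysosome genes other than adaptors and clathrin, azurophil genes included, 53.7% were higher and the median was 0.35. The summed level of the 25 azurophil granule genes was 1283 ± 19.8 FPKM in control and 1562 ± 78.4 in hyperoside libraries (SD, n = 3 each). Of the 50 genes of the lysosomal lumen 28 were higher and 4 lower.

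AP1M2, AP3S2, ATP6V0A4, CTSO, CTSW and HYAL4 are the 6 genes that did not pass the filter on low counts. AP1M2, a subunit of the epithelial AP-1 adaptor, had 18, 4 and 20 counts in control and 2, 2 and 1 in hyperoside libraries. It was lower in edgeR with no filter (log2 fold change -3.01, adjusted p = 0.0201), in the DESeq2 Wald test (-3.12, adjusted p = 0.0177) and in edgeR without control replicate 2 or any 1 hyperoside replicate (adjusted p = 0.0044 to 0.0474). It did not pass the filter without control replicate 1 or 3. The other 5 were not called with no filter (edgeR adjusted p = 0.112 to 0.591). CTSW, a cathepsin of cytotoxic lymphocytes, had 2 counts in control and 22 in hyperoside libraries, a ratio of 10.7 with a 95% exact counting interval of 2.62 to 93.5, of which 14 lay in hyperoside replicate 2. ATP6V0A4 had 1 and 14 counts, a ratio of 13.6 with an interval of 2.06 to 573. AP3S2 had 6 and 2 counts, a ratio of 0.323 with an interval of 0.0319 to 1.81, and its exons overlap a read-through gene on the same strand. HYAL4 had 1 count in all.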
